A study of Mus musculus with 16 samples.

Results

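The transforming growth factor-beta (TGF-beta) genes described here were 10 genes, chosen as the probes of the array whose transcript accession carries the symbol Tgfb1, Tgfb2, Tgfb3, Tgfbr1, Tgfbr2, Tgfbr3, Smad7, Ccn1, Ccn2 or Inhba. Ccn1 is also known as Cyr61 and Ccn2 as Ctgf. They were 10 of 26789 genes tested, and 13 of the 55681 probes of the array belonged to them. All 10 passed the filter on dim probes, and the tested probe of each was well above background on all 16 arrays.

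Gene expression was measured with 1-colour Agilent SurePrint G3 Mouse arrays in the bladder body of C57BL/6 mice. There were 4 mature males and 4 mature females of 12 months (MAT) and 4 aged males and 4 aged females of 27 to 30 months (AGED), with 1 array per mouse. The comparison asked how the expression of bladder genes changed with age in each sex. In this whole-tissue RNA, fewer cells of a type and less RNA per cell cannot be told apart.

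TGF-beta ligands are secreted in a latent form, held in the extracellular matrix, and signal once released. The active ligand brings together a type II and a type I receptor kinase, which phosphorylate the Smad proteins that then regulate genes in the nucleus. The pathway is known for driving matrix production by fibroblasts and smooth muscle cells, and its inhibitor Smad7 and the matricellular proteins Ccn1 and Ccn2 are among the genes it can switch on. Ccn1 and Ccn2 also respond to mechanical stretch through the co-activators YAP and TAZ, which bind DNA through TEAD factors.

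All levels are the log2 signal of a probe minus the 75th percentile of its array, so that 0 stands for that percentile, and levels are compared for 1 probe at a time. A gene was called when limma's adjusted p was under 0.05 (Benjamini-Hochberg over all genes tested) and the change was at least 2-fold. Directions follow the age and sex that the labels give each array. They are opposite to those of the study's own list of the genes most regulated with age. Whether the labels or that list is reversed was not settled, so every rise and fall given here holds by the labels only.

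The slide and the array position set a limit on every comparison. All females were hybridised on slide 1 and all males on slide 2, and in each slide the MAT mice filled row 1 and the AGED mice row 2. Sex and slide, and age and row, therefore cannot be told apart. AGED male replicate 1 was the dimmest array, with 52.4% of probes well above background against 58.6% to 68.3% on the other arrays. Over all genes, 74 rose and 154 fell with age in males, 48 rose and 3 fell in females, and 56 rose and 23 fell in the average of both sexes. Scaling each array to its median in place of the 75th percentile turned the last split into 51 and 34, and normexp background correction the male one into 64 and 692. Smooth muscle and urothelium were well represented, since all 9 smooth muscle markers and all 10 urothelial markers were well above background on all 16 arrays.

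None of the 10 genes was called in either sex. The background was 0.851% of all genes called in males and 0.190% in females. The median log2 change of the 10 genes was -0.0045 in males and -0.0384 in females, beside 0.0015 and -0.0063 over all genes tested, and 5 of the 10 genes had a positive log2 change in males and 3 in females. In all 10 genes the AGED and MAT arrays overlapped in males and in females, where 7.82% and 10.8% of all genes did not overlap. Before adjustment, 2 of the 10 had a limma p under 0.05 in males and 0 in females, against 16.2% and 10.5% of all genes. In the average of both sexes 0 were called, where 0.295% of all genes were.

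**Figure D1:**
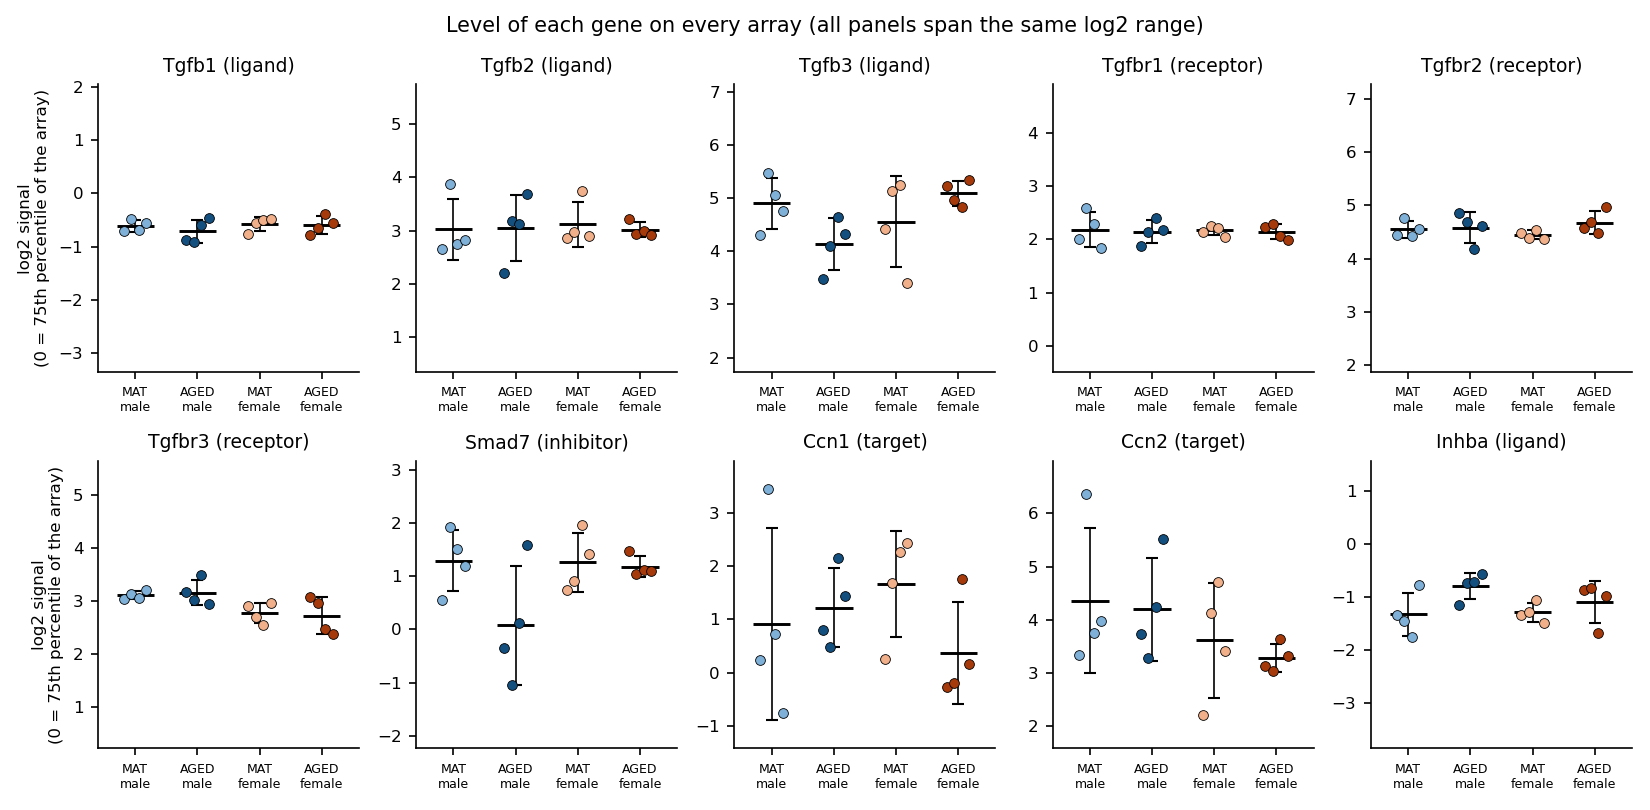
Level of each of the 10 genes on the 16 arrays, as log2 signal relative to the 75th percentile of the array. Each point is 1 mouse, the horizontal bar is the group mean and the error bar is the SD of 4 arrays. Every panel spans the same log2 range, so the wide scatter of Ccn1, Ccn2 and Smad7 and the narrow scatter of Tgfb1 and the 3 receptors can be compared by eye.

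The 3 TGF-beta ligands differed in how far they varied between mice. Tgfb1, the most widely expressed isoform, lay between -0.92 and -0.47 on the male arrays and between -0.78 and -0.38 on the female arrays. Its SD within groups was 0.16 on the log2 scale, at the 11.4th percentile of the genes tested. The log2 change with age was -0.10 (95% confidence interval -0.38 to 0.18) in males and -0.02 (-0.30 to 0.26) in females, so a change of 2-fold lay outside both intervals.

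Tgfb2, an isoform abundant in epithelial and smooth muscle layers, had a log2 level of 3.03 ± 0.57 in MAT males, 3.05 ± 0.62 in AGED males, 3.11 ± 0.42 in MAT females and 3.02 ± 0.14 in AGED females (mean ± SD, n = 4). The group means differed by less than the SD of the groups. MAT male replicate 2, at 3.88, and MAT female replicate 3, at 3.74, stood above the other arrays of their groups. The log2 change was 0.02 (-0.65 to 0.70) in males and -0.10 (-0.77 to 0.57) in females. The sign in males turned under median scaling, which gave -0.04. A further probe of Tgfb2 gave 0.04 in males and -0.24 in females.

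Tgfb3, the isoform linked to scar-poor repair, had the widest gap between the age changes of males and females among the TGF-beta ligands, a gap that did not pass the test after adjustment. Its log2 levels were 4.31, 5.47, 5.05 and 4.76 in the MAT males and 3.48, 4.09, 4.64 and 4.32 in the AGED males. In females they were 4.42, 5.14, 5.25 and 3.40 in the MAT mice and 5.23, 4.95, 4.84 and 5.33 in the AGED mice. Replicates 1 and 2 of the AGED males lay below every MAT male, while the 4 AGED females lay close together near the top of the MAT female range.

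The log2 change of Tgfb3 was -0.76 (-1.55 to 0.02) in males, with a limma adjusted p of 0.32 and an exact two-sided permutation p of 0.0857 over the 8 arrays. In females it was 0.54 (-0.25 to 1.32), with a limma adjusted p of 0.663 and an exact permutation p of 0.314. Without MAT female replicate 4, the lowest female, the log2 change in females was 0.15. The smallest p that 4 against 4 arrays allow is 0.0286. The difference between the age changes, females less males, was 1.30 (0.19 to 2.41), with a limma p of 0.0246 before and 0.413 after adjustment, and 0.91 without MAT female replicate 4. The age changes thus did not pass the test of a difference between the sexes, which 0 of the 10 genes passed and 0.149% of all genes did. Before adjustment Tgfb3 was the 1 gene of the 10 under 0.05, against 9.87% of all genes.

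Inhba encodes the subunit of activin A, a ligand of the same superfamily that signals through the same Smads as TGF-beta. Its log2 levels were -1.34, -1.44, -1.75 and -0.77 in the MAT males and -1.15, -0.74, -0.71 and -0.56 in the AGED males. In females they were -1.33, -1.28, -1.06 and -1.48 in the MAT mice and -0.87, -0.84, -1.68 and -0.98 in the AGED mice. In each sex 3 of the 4 AGED mice lay above all 4 MAT mice, and the remaining AGED female was the lowest of all females.

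The log2 change of Inhba was 0.53 (0.06 to 1.01) in males, with a limma p of 0.0299 before and 0.25 after adjustment. The exact two-sided permutation p over the 8 male arrays was 0.0571. In females the log2 change was 0.20 (-0.28 to 0.67, limma adjusted p = 0.828), and 0.39 without AGED female replicate 3. Averaged over both sexes it was 0.36 (0.03 to 0.70), with a limma p of 0.0349 before and 0.245 after adjustment. It was the 1 gene of the 10 with an unadjusted p under 0.05 in that average, where 17.8% of all genes had one.

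**Figure D2:**
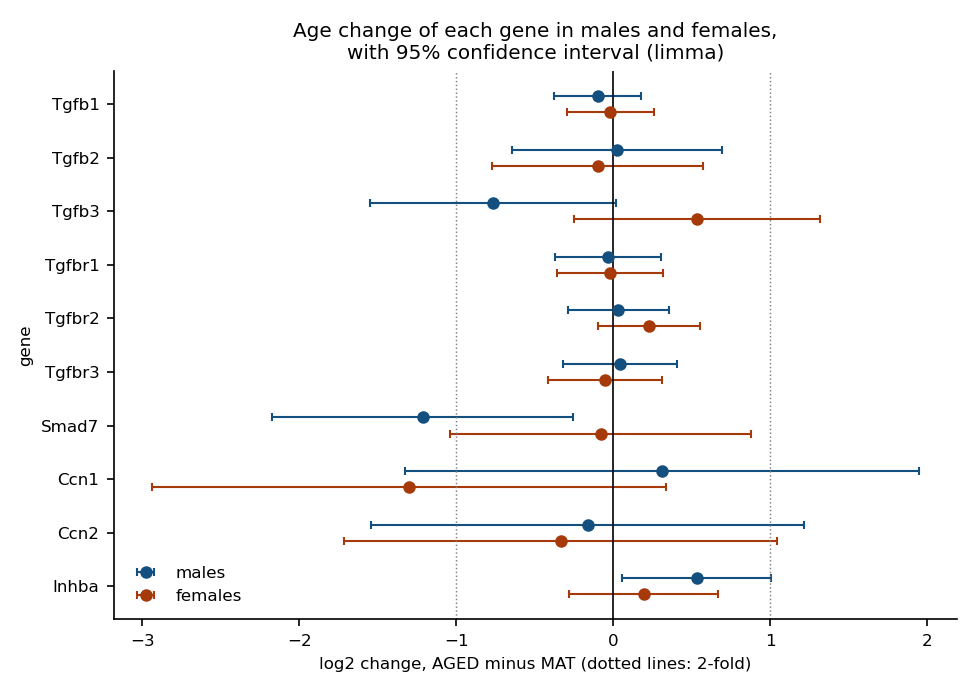
Log2 change with age (AGED minus MAT) of each gene in males and in females, with its 95% confidence interval from limma. Dotted lines mark a change of 2-fold. The intervals of Tgfb1, Tgfb2 and the 3 receptors lie inside the dotted lines. Those of Tgfb3, Smad7, Ccn1 and Ccn2 reach past 2-fold on at least 1 side in each sex, and that of Inhba in males only.

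The 3 receptors showed the tightest intervals after Tgfb1. Tgfbr1, the type I receptor kinase, had log2 levels between 1.84 and 2.58 on the male arrays and between 1.99 and 2.29 on the female arrays. Its log2 change was -0.03 (-0.37 to 0.30) in males and -0.02 (-0.36 to 0.31) in females. The sign of Tgfbr1 was not stable, since the mean of its 2 kept probes gave 0.26 and 0.13. The other probe alone gave 0.55 in males and 0.29 in females, with exact permutation p-values of 0.371 and 0.457, and was well above background on 13 of the 16 arrays.

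Tgfbr2, the type II receptor kinase that binds the ligand, had a log2 level of 4.55 ± 0.16 in MAT males, 4.58 ± 0.29 in AGED males, 4.45 ± 0.08 in MAT females and 4.68 ± 0.21 in AGED females (mean ± SD, n = 4). Its log2 change was 0.03 (-0.29 to 0.36) in males and 0.23 (-0.09 to 0.55) in females, where the exact permutation p was 0.0857. The sign in males turned to -0.03 under median scaling. A further probe of Tgfbr2 gave 0.35 in males and 0.33 in females, and 0.34 in their average (limma adjusted p = 0.307 in a fit over all kept probes).

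Tgfbr3, or betaglycan, presents ligands to the kinase receptors and binds TGF-beta2 with high affinity. Its log2 change with age was 0.04 (-0.32 to 0.41) in males and -0.05 (-0.42 to 0.31) in females. The sign in males turned to -0.02 under median scaling. Between the sexes the values lay further apart than between the ages. MAT males had log2 levels of 3.04, 3.14, 3.06 and 3.21, and MAT females 2.90, 2.69, 2.55 and 2.96, so these groups did not overlap. Such a gap between the sexes was seen for 18.4% of all genes in MAT mice. The AGED males had 3.18, 3.02, 3.48 and 2.94 and the AGED females 3.07, 2.96, 2.48 and 2.37, which overlapped.

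The log2 difference of Tgfbr3, females minus males, was -0.34 in MAT mice (limma adjusted p = 0.4) and -0.43 in AGED mice (-0.80 to -0.07, limma adjusted p = 0.121). None of the 10 genes was called between the sexes at either age, where 0.164% of all genes were in MAT mice and 3.12% in AGED mice. Before adjustment 0 of the 10 in MAT mice and 3 in AGED mice had a p under 0.05, against 14.0% and 26.2% of all genes. The other two were Tgfb3, with a log2 difference of 0.95 (limma adjusted p = 0.114), and Smad7, described next. The AGED males and females did not overlap in Tgfb3, which was so for 13.7% of all genes.

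Smad7, the inhibitory Smad that blocks the type I receptor, had the largest log2 change among the 10 genes in males. Its log2 levels were 0.55, 1.92, 1.50 and 1.19 in the MAT males and -0.36, -1.04, 0.11 and 1.59 in the AGED males. In females they were 0.74, 0.91, 1.97 and 1.42 in the MAT mice and 1.47, 1.04, 1.12 and 1.09 in the AGED mice. Replicates 1, 2 and 3 of the AGED males lay below all 4 MAT males, and AGED male replicate 4 lay above 3 of them. The AGED females stayed inside the range of the MAT females.

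The log2 change of Smad7 in males was -1.21 (-2.17 to -0.25), a 2.32-fold lower mean, with a limma p of 0.0166 before and 0.194 after adjustment. The exact two-sided permutation p was 0.114. In females the log2 change was -0.08 (-1.04 to 0.88, limma adjusted p = 0.977). The difference between the age changes was 1.14 (-0.22 to 2.49, limma adjusted p = 0.599), and that between AGED females and AGED males was 1.11 (limma adjusted p = 0.134). Of the single arrays left out, only AGED male replicate 4 gave a call of Smad7, in males and between AGED females and males. Leaving out AGED male replicate 2, the lowest, brought the change in males under 2-fold. Without AGED male replicate 4 the log2 change in males was -1.72 (limma adjusted p = 0.0278) and the difference between AGED females and males 1.61 (limma adjusted p = 0.0164), both past the threshold.

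Ccn1 and Ccn2 are secreted matricellular proteins that link matrix, integrins and growth factors, and Ccn2 is a long-standing readout of TGF-beta in fibrosis. They varied more between mice of the same group than nearly any other gene. The SD within groups was 1.19 on the log2 scale for Ccn1 and 1.00 for Ccn2, at the 98.5th and 97.5th percentile of all genes tested, whose median SD was 0.30. Over the 16 arrays the highest value was 18.5-fold the lowest for Ccn1 and 17.8-fold for Ccn2.

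The log2 levels of Ccn1 were 0.23, 3.45, 0.72 and -0.76 in the MAT males and 0.79, 0.47, 2.15 and 1.45 in the AGED males. In females they were 0.25, 1.68, 2.27 and 2.44 in the MAT mice and -0.28, -0.19, 1.77 and 0.16 in the AGED mice. MAT male replicate 2 stood highest of all 16 arrays, and 3 of the 4 AGED females lay below every MAT female. The log2 change was 0.31 (-1.33 to 1.95) in males and -1.30 (-2.93 to 0.34) in females, where limma's adjusted p was 0.594 and the exact permutation p 0.0857. The difference between the age changes was -1.61 (-3.92 to 0.71, limma adjusted p = 0.683). Leaving out either AGED male replicate 3 or MAT male replicate 4 turned the sign in males, to -0.0019 and -0.25.

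The log2 levels of Ccn2 were 3.34, 6.36, 3.75 and 3.99 in the MAT males and 3.73, 3.29, 4.24 and 5.53 in the AGED males. In females they were 2.21, 4.12, 4.72 and 3.42 in the MAT mice and 3.13, 3.05, 3.64 and 3.32 in the AGED mice. MAT male replicate 2 was again the highest array, and the AGED females were the group with the least spread. The log2 change was -0.16 (-1.54 to 1.22) in males and -0.34 (-1.71 to 1.04) in females, with limma adjusted p-values of 0.927 and 0.917. These intervals include both a fall and a rise of 2-fold, so a change of that size was not excluded for Ccn2 with 4 arrays per group. The sign in males turned to 0.51 without MAT male replicate 2 and to 0.14 without AGED male replicate 2, and that in females to 0.03 without MAT female replicate 3.

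Ccn1 was set beside the immediate early genes, such as Fos, Jun and Egr1. These genes are transcribed within minutes of stress, stretch or serum, and Ccn1 is itself known to respond in that way. The mean log2 level of 13 immediate early genes was 0.91, 3.71, 2.28 and 0.77 in the MAT males, 0.25, 0.53, 1.27 and 0.39 in the AGED males, 0.80, 1.26, 2.26 and 1.90 in the MAT females and 0.87, 1.19, 2.18 and 1.19 in the AGED females. MAT male replicate 2 again stood highest. AGED male replicate 4 had a low mean but a Ccn1 level above the other AGED males except replicate 3.

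Over the 16 arrays, Ccn1 correlated with this mean with a Pearson r of 0.69 (permutation p = 0.00326, Benjamini-Hochberg adjusted p = 0.055) and a Spearman rho of 0.58 (permutation p = 0.0218, adjusted p = 0.178). Without the 2 arrays farthest from the median of the immediate early mean r was 0.59. Within the 8 male arrays r was 0.66 and within the 8 female arrays 0.84, and for deviations from the group means it was 0.93. The permutations shuffled all 16 arrays regardless of group, so differences between the groups enter the r over 16 arrays and its p. For Ccn2 the Pearson r was 0.50 (permutation p = 0.0541, adjusted p = 0.165) and the Spearman rho 0.35 (permutation p = 0.188, adjusted p = 0.449). The Pearson r of Ccn2 was 0.06 without the 2 farthest arrays, both of them MAT males, so the r over all 16 arrays depended on those arrays. Within the 8 male arrays the r of Ccn2 was 0.58. Within the 8 female arrays, which hold neither of the 2, it was 0.71. For deviations from the group means it was 0.67. Inhba ran the other way, with r of -0.61 (permutation p = 0.0115, adjusted p = 0.105), rho of -0.60 (permutation p = 0.0165, adjusted p = 0.178) and r of -0.53 without the 2 farthest arrays. The r of Inhba was -0.65 in males and -0.50 in females. For deviations from the group means it was -0.42, weaker than over the pooled arrays. Smad7 had r of 0.59 (permutation p = 0.0171, adjusted p = 0.118) and rho of 0.50 (permutation p = 0.0493, adjusted p = 0.243). The r of Smad7 was 0.52 without the 2 farthest arrays, 0.60 in males, 0.60 in females and 0.41 for deviations from the group means. Tgfbr1 had r of 0.61 (permutation p = 0.0138, adjusted p = 0.1085) and rho of 0.53. Its r was 0.25 without the 2 farthest arrays, 0.79 in males and -0.24 in females. Tgfb1 had r of 0.55 (permutation p = 0.0256, adjusted p = 0.1366) and rho of 0.50. Its r was 0.68 without the 2 farthest arrays, 0.43 in males and 0.88 in females. Of the 55 relations computed, which were the 45 pairs among the 10 genes and each gene with the immediate early mean, 16 had an unadjusted Pearson p under 0.05 and 0 an adjusted one.

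**Figure D3:**
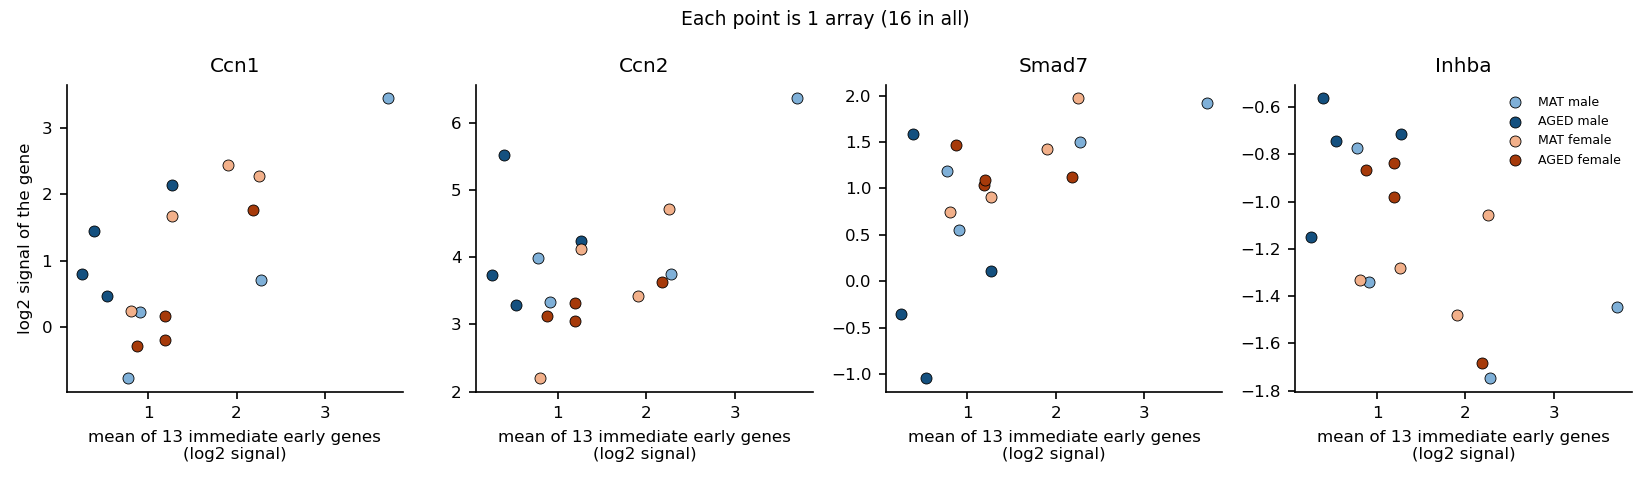
Log2 signal of Ccn1, Ccn2, Smad7 and Inhba against the mean log2 signal of 13 immediate early genes, with 1 point for each of the 16 arrays. MAT male replicate 2 is the point at the far right of each panel. The points of Ccn1, Ccn2 and Smad7 tend upward from left to right in both sexes and those of Inhba downward. The Pearson r of Ccn2 was 0.50 over the 16 arrays and 0.06 without the 2 farthest from the median of that mean.

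The immediate early genes themselves had a negative log2 change with age in 13 of 13 tested in males and in 9 of 13 in females. Their median log2 change was -1.30 in males and -0.25 in females, and 0 were called in either sex. The male median was -0.77 without MAT male replicate 2, when 12 of 13 were negative, and the female median lay between -0.62 and -0.0098 with single arrays left out. Egr1, a zinc finger factor induced by growth signals, changed by -2.30 in males (limma adjusted p = 0.0742), and its AGED and MAT males did not overlap. Jun changed by -1.17 in males (limma adjusted p = 0.165) and the antiproliferative gene Btg2 by -1.60 (limma adjusted p = 0.188). The part of these genes in the values of Smad7, Ccn1 and Ccn2 was not tested.

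Among the 10 genes, Ccn1 and Ccn2 moved together with an r of 0.67 (permutation p = 0.00328, adjusted p = 0.055) and a rho of 0.64 (permutation p = 0.00987, adjusted p = 0.178). The r was 0.60 without the 2 arrays farthest from the median of Ccn1, 0.77 in males, 0.69 in females and 0.76 for deviations from the group means. Tgfb1 and Smad7 had an r of 0.70 (permutation p = 0.00239, adjusted p = 0.055) and a rho of 0.61 (permutation p = 0.0124, adjusted p = 0.178). That relation dropped to 0.33 without 2 arrays and was 0.85 in males and 0.25 in females, so it rested on few arrays. Its r was 0.67 for deviations from the group means. Tgfb2 and Ccn2 had an r of 0.69 (permutation p = 0.004, adjusted p = 0.055), but their rho of 0.39 was smaller (permutation p = 0.142, adjusted p = 0.39). Without the 2 arrays farthest from the median of Tgfb2 their r was 0.44. It was 0.82 in males, 0.69 in females and 0.78 for deviations from the group means.

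The genes whose pattern over the 16 arrays was most like each member were taken from 15747 other genes by Pearson r, as a description. Ccn1 was most like Ptgs2, the inducible prostaglandin synthase (r = 0.84), and Dusp1, a phosphatase of MAP kinases (r = 0.80). Ccn2 was most like Ier3, a stress-induced gene (r = 0.86), and Csrnp1 (r = 0.82). Smad7 was most like Krit1 (r = 0.94) and Jag1, a ligand of Notch (r = 0.89). Tgfb3 was most like 1700009N14Rik (r = 0.88), Myh2, a skeletal muscle myosin (r = 0.88), and Col8a1, a collagen chain (r = 0.87). Tgfbr2 was most like Rhoc (r = 0.89), Tgfbr3 like Tfcp2l1 (r = 0.90), Tgfb2 like Tent4a (r = 0.91), Tgfbr1 like Ubqln1 (r = 0.85), Inhba like Gap43 (r = 0.82) and Tgfb1 like Intu (r = 0.81).

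The other genes of the pathway were followed in 8 lists, of which 105 genes were tested. In males 2 of the 105 were called and in females 0, where 0.851% and 0.190% of all genes were. An unadjusted p under 0.05 was found for 22.9% and 8.57% of the 105, against 16.2% and 10.5% of all genes. In males 6 of the 24 genes with such a p were immediate early genes. In the latency and activation list, which holds the proteins that store and release the ligands, 0 of 14 were called in either sex. Ltbp4, a latent TGF-beta binding protein of elastic fibres, had a log2 change of -0.47 in males (limma adjusted p = 0.144) and -0.45 in females (limma adjusted p = 0.332). Furin, the protease that cuts the TGF-beta precursor, had 0.58 in males (limma adjusted p = 0.15). The AGED females lay below the MAT females in Ltbp4 without overlap, and the AGED males above the MAT males in Furin. Lrrc32, which tethers latent TGF-beta to the cell surface, had 0.46 in females (limma adjusted p = 0.424).

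Of 15 other ligands and receptors of the superfamily, 0 were called. Bmp7, a bone morphogenetic protein, came nearest in males. Its log2 levels were 4.13, 4.14, 4.13 and 3.94 in the MAT males and 2.51, 3.31, 3.44 and 3.62 in the AGED males, without overlap. The log2 change of -0.87 had a limma adjusted p of 0.044 but stayed under 2-fold. The adjusted p alone was passed by 1.72% of all genes in males. In females Bmp7 changed by 0.24 (limma adjusted p = 0.744), and the difference between the age changes was 1.11 (limma adjusted p = 0.163). Acvrl1, or ALK1, a type I receptor of endothelial cells, had -0.79 in males (limma adjusted p = 0.0582). Bmp4 had -0.68 in females (limma adjusted p = 0.171), with the AGED below the MAT females. Inha, the inhibin alpha subunit that pairs with the product of Inhba, had 0.42 in males and -0.42 in females, and the difference of -0.84 had a limma adjusted p of 0.222.

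Among 8 secreted and membrane inhibitors, 0 were called. Fst, or follistatin, which binds activin, had 0.85 in females (limma adjusted p = 0.452).

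Of 16 Smad relays and regulators, 0 were called in either sex. Smad4, the partner shared by all receptor-activated Smads, had a log2 change of -1.05 in males (limma adjusted p = 0.0974), from 3 AGED arrays because 1 spot of AGED male replicate 3 was set aside as an outlier. Smurf2, a ubiquitin ligase that works with Smad7 on the receptors, had -0.68 in males (limma adjusted p = 0.128).

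Of 24 TGF-beta target genes, 1 was called in males and 0 in females. The median log2 change of the list was -0.11 in males and 0.03 in females, and 15 of 24 had a negative change in males. The gene called was Bhlhe40, a basic helix-loop-helix repressor that is also under clock, hypoxia and growth factor control. Its log2 levels were 1.26, 2.20, 1.03 and 1.66 in the MAT males and 0.17, 0.30, 0.45 and 0.70 in the AGED males, and the groups did not overlap. In males its log2 level fell by 1.13 (limma adjusted p = 0.0184). In females the log2 change was 0.0016 (limma adjusted p = 0.999), and the difference between the age changes was 1.13 (limma adjusted p = 0.195). Without MAT male replicate 2 the change in males was -0.91 and no longer 2-fold. The matrix genes of the list gave no call, with Col1a2, a chain of type I collagen, at -0.46 in males (limma adjusted p = 0.227), Loxl2, a matrix crosslinking enzyme, at 0.66 in males (limma adjusted p = 0.281) and Timp1, an inhibitor of matrix proteases, at 0.99 in females (limma adjusted p = 0.413). The 3 CCN family members tested beside Ccn1 and Ccn2 gave no call.

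Of 12 YAP and TEAD target genes, 1 was called in males and 0 in females. The median log2 change was 0.25 in males, where 9 of 12 were positive, and -0.09 in females, where 5 of 12 were. The gene called was Ajuba, a LIM domain protein that restrains the Hippo kinases and so favours YAP. Its log2 levels were -0.92, -1.81, -1.55 and -1.44 in the MAT males and 0.82, 0.03, -0.58 and -0.29 in the AGED males. The AGED males lay above every MAT male, and above every female as well.

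Ajuba rose 2.68-fold in males, a log2 change of 1.42, with a limma adjusted p of 0.0114. In females the log2 change was -0.20 (limma adjusted p = 0.851), and the difference between the age changes was -1.63 (limma adjusted p = 0.0962). Amotl2, a YAP-binding protein of cell junctions, had 0.95 in males (limma adjusted p = 0.0678) and -0.35 in females, with a difference of -1.30 (limma adjusted p = 0.182). Nuak2, a kinase, had 0.64 in males (limma adjusted p = 0.106), a value that normexp background correction turned to -0.09. Ccn1 and Ccn2, the best known targets of YAP, had 0.31 and -0.16 in males as given above.

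**Figure D4:**
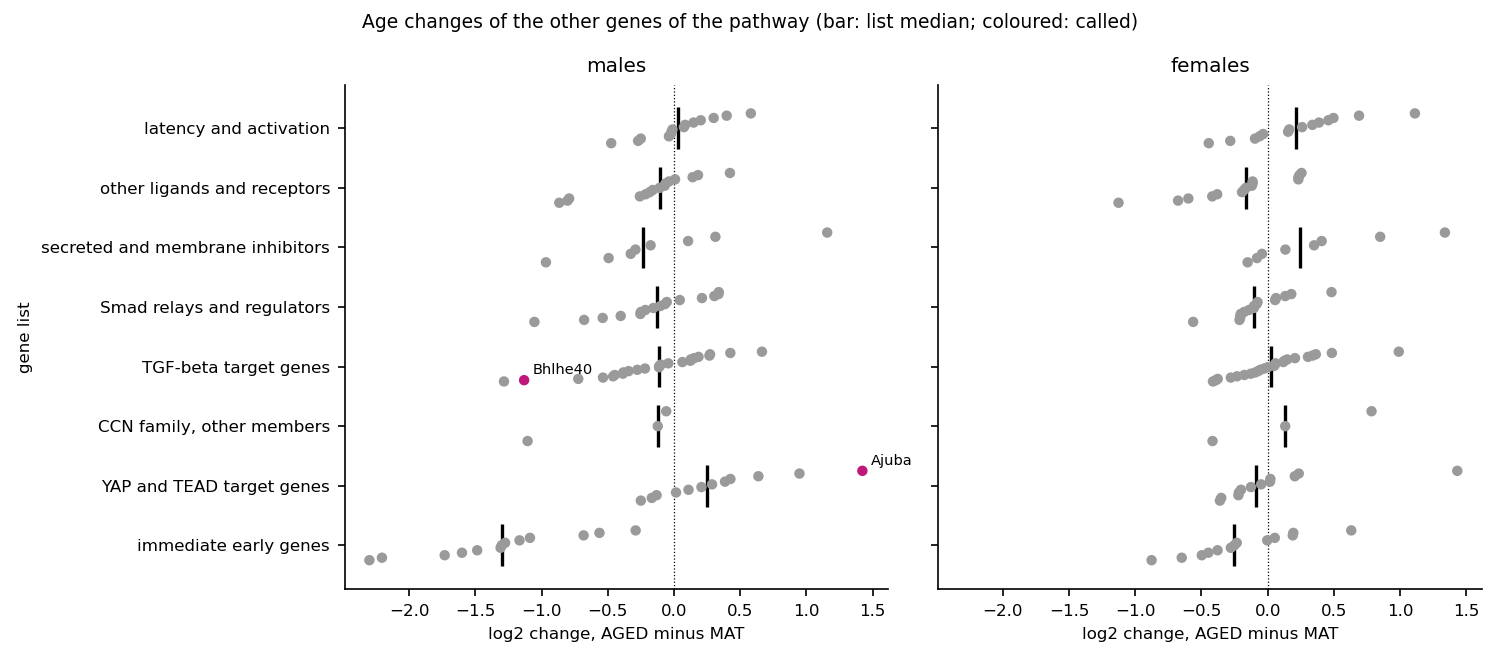
Log2 change with age (AGED minus MAT) of the 105 tested genes of 8 pathway lists, in males on the left and females on the right. Each point is 1 gene, the black bar is the median of the list and coloured points are genes called. In males Bhlhe40 lies among the called genes on the left and Ajuba on the right, and the immediate early genes lie left of 0, while no point is coloured in females.

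The promoters of Ccn1 and Ajuba are shown because Ccn1 was the most variable of the 10 genes and Ajuba the called gene of the list it shares through TEAD. They are the 250 bases before the transcription start in RefSeq (GRCm38.p6), 5′ to 3′ on the strand of the gene, with the MCAT element CATTCC, the sequence that TEAD factors bind, in capitals. Both genes lie on the minus strand, Ccn1 at chr3:145649986-145650235 and Ajuba at chr14:54577662-54577911.
Ccn1: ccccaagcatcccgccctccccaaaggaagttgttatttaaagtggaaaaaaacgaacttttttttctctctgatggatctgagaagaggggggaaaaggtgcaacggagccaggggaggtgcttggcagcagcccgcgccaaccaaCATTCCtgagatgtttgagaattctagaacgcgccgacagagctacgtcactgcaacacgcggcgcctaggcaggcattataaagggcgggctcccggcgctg
Ajuba: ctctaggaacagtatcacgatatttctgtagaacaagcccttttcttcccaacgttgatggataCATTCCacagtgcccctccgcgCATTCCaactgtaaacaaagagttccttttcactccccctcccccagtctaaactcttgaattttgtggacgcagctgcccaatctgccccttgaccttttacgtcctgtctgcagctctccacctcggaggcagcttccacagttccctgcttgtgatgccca
The element starts at position -103 in Ccn1 and at -186 and -164 in Ajuba, counted from the start site. Searched as CATTCC or its reverse complement GGAATG, it was found in 12.6% of all 32851 promoters over the same length. Of the 6 members with a promoter in the table, 1 held it, and of the 9 genes of the YAP and TEAD list with a promoter 6 did. These matches describe letters only.

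The marker lists gave no call among smooth muscle, urothelium, macrophage, T and B cell, endothelium, nerve, adipocyte, mesothelium or skeletal muscle genes in either sex. Of 67 marker genes tested, 1 was called in males, where 0.851% of all genes were. It was the fibroblast collagen Col14a1, whose log2 level fell by 1.09 (limma adjusted p = 0.00327). Of the 8 fibroblast markers, 7 had a negative log2 change in males and 3 in females. Their summed signal, relative to the 75th percentile, ran from 198 to 248 in MAT males and from 128 to 228 in AGED males. All 8 were well above background on 16 arrays. Of the T and B cell markers, 8 of 8 had a positive log2 change in males (median 0.83) and 0 of 8 in females (-0.46). Of 5 adipocyte markers, 5 were negative in males (-0.59) and in females (-1.12), as were 2 of 2 skeletal muscle markers. Of 4 mesothelium markers, 4 were positive in females (0.63) and 2 in males. The other lists held both signs in each sex. Well above background on all arrays were 5 of the T and B cell markers and 1 adipocyte marker. The part of the fibroblast markers in the male values of Tgfb3 and Bmp7 was not tested. No gene of the male accessory gland list passed the filter on dim probes.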

How the data were processed

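Total RNA from the bladder body was labelled with Cy3 and hybridised to 1-colour arrays. The authors extracted an intensity for each spot with Agilent Feature Extraction (10.7.3.1 per the file headers, 9.1 in the submitters' processing notes), which subtracts background and detrends within the array. The deposited table of log2 values was checked against these signals and differed by a median of at most 0.0135. Here log2 of the processed signal less the 75th percentile of each array was used, without outlier-flagged and control spots. Probes flagged well above background on fewer than 4 of 16 arrays were dropped, and a gene was represented by its kept probe of highest mean. Counts over a list cover its tested genes.

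Groups came from the labels. limma 3.58.1 in R 4.3.3 fitted 4 group means to 16 arrays with Benjamini-Hochberg adjustment over 26789 genes, and recovered known changes in simulated data. Single values were tested by exact permutation over 8 arrays and correlations with 100000 permutations. Accessions were matched to symbols through RefSeq, which named 26576 probes. The number of arrays limits the precision. The series' design text gives 4 mice per group. The members and the gene lists (8 pathway, 11 marker lists) were chosen with earlier results of these data known. Genes named from a list were those called and up to 3 more with the smallest p in a sex. A gene that this rule also chose is not reported here. Alternatives were quantile and median scaling, normexp with offset 50 on the median spot signal, the deposited log2 table, other probe filters, the mean of probes, the methods' t-test, other thresholds, separate fits, array weights, a replicate block and leaving out each array.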

Additional observations from a re-analysis of the deposited data

Results flagged for a closer look

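Among 128 groups of 4 arrays examined over 31 named genes and the immediate early mean, the highest or lowest array stood apart from the others by Dixon's test at the 95% level in 6, or 4.69%, and chance alone marks about 1 in 20 groups. In Tgfb2 the gap took 0.85 of the range for MAT male replicate 2 and 0.874 for MAT female replicate 3. In Inhba it took 0.832 for AGED female replicate 3, the lowest female. In Bmp7 it took 0.936 for MAT male replicate 4 and 0.879 for MAT female replicate 1, and in Fst 0.885 for MAT male replicate 2.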

How the results depend on the processing

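The 10 genes were recomputed under 31 alternatives. None was called under any of them except with an unadjusted limma p and no fold limit, which counted 2 in males, 1 in the difference between the sexes, 1 in the average and 3 between AGED females and males, and without AGED male replicate 4, which gave 1 in males and 1 between AGED females and males, Smad7 each time (ranges over single arrays left out 0 to 1). Of 872 recomputed values of these genes, 824 kept their direction and their side of the threshold and 39 turned their sign, in genes whose change was near 0 or whose arrays scattered widely.

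Sign changes came with normexp correction (Tgfb1 0.094 in males and 0.0064 in females, Tgfbr1 0.24 in males), which moved the median of all genes in males by 0.12, so that Tgfb1 stayed below that median. They came with median scaling in males (Tgfb2 -0.038, Tgfbr2 -0.029, Tgfbr3 -0.018), with the mean of probes (Tgfbr1 0.26 in males, 0.13 in females) and with array weights in males (Tgfbr1 0.030, Ccn2 0.16). Nuak2 turned to -0.090 in males under normexp. With single arrays left out, the log2 change in males ran from -0.19 to 0.31 for Tgfb2, -0.15 to 0.10 for Tgfbr1, -0.057 to 0.17 for Tgfbr2, -0.065 to 0.12 for Tgfbr3, -0.25 to 1.16 for Ccn1, -0.60 to 0.51 for Ccn2, -1.72 to -0.84 for Smad7, -0.96 to -0.55 for Tgfb3 and 0.39 to 0.72 for Inhba. In females it ran from -0.088 to 0.045 for Tgfb1, -0.19 to 0.11 for Tgfb2, -0.070 to 0.029 for Tgfbr1, -0.17 to 0.062 for Tgfbr3, -0.25 to 0.16 for Smad7, -0.81 to 0.032 for Ccn2, 0.15 to 0.77 for Tgfb3 and 0.11 to 0.39 for Inhba.

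The calls of Ajuba and Bhlhe40 in males were lost when each sex was fitted alone (limma adjusted p = 0.179 and 0.199) and under the methods' t-test after adjustment, and that of Bhlhe40 also under normexp (-0.86) and array weights (-0.90). The call of Col14a1 was lost in these 4 settings and with the mean of probes (-0.96).

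Counts over all genes depended far more on the setting. In males 228 became 756 with normexp (64 higher, 692 lower), 552 with no probe filter, 461 with no fold limit, 4343 with the unadjusted p and no fold limit, 11 with each sex fitted alone, and 496 and 0 under the methods' t-test at its own threshold and after adjustment. In females 51 became 18 with no filter, 2802 with the unadjusted p, 99 fitted alone, 197 with array weights, and 394 and 1 under the methods' t-test. The difference between the sexes went from 40 to 465 with normexp, 7 with no filter, 25 with the mean of probes, 261 with array weights and 2645 with the unadjusted p, and the average from 79 to 357 with no filter, 305 with no fold limit and 4775 with the unadjusted p. Leaving out single arrays gave 123 to 377 in males, 1 to 120 in females, 6 to 269 for the difference and 46 to 121 for the average. The highest counts came without AGED male replicate 2 in males and in the average and without AGED male replicate 1, the dimmest array, in females and in the difference. The lowest came without MAT male replicate 3 in males, without AGED female replicate 2, MAT female replicate 1 or MAT female replicate 4 in females, without any of these or MAT female replicate 2 in the difference, and without MAT female replicate 4 in the average. The cause was not tested.

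The replicate numbers did not pair the samples, since the deviations of same-numbered mice of a sex correlated between -0.15 and 0.07 and 2 of 8 correlated best with their own number. With the number as a replicate block, 184 genes were called in males, 3 in females, 8 in the difference and 55 in the average, and 0 of the 10 genes. Of the other named genes it changed the call of Egr1 in males (limma adjusted p = 0.0403).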
